A study of Mus musculus with 2 samples.

Results

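The Asc1 fibroblasts of the deposited annotation are the most numerous stromal class of these mouse lungs, taken here without the SNAT2 subset that the finer annotation column splits from them. A cell was a member if that column named it an Asc1 fibroblast, if at least 500 genes were detected in it, and if at most 10% of its counts were mitochondrial. This gave 6487 of 14229 kept cells. Of these, 2847 of 6089 kept cells came from the high fat diet library (HFD) and 3640 of 8140 from the normal chow library (NC). The mice were C57Bl/6J, fed high fat diet or normal chow for 16 weeks, and the cells were fibroblastic stroma of the lung profiled with a droplet kit that reads transcripts from their 3′ end. Each diet has 1 library, and the labels give neither the number, sex or age of the animals nor whether they were pooled. No difference between the diets could therefore be tested, and all intervals are 95% intervals that cover counting error only. The question the design poses is how the diets differ in these cells.

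Alveolar fibroblasts lie in the alveolar wall next to the epithelium. They are known for lipid droplets, for retinoid storage, for secreting growth factors that sustain alveolar type 2 cells, and for anchoring the wall through nephronectin and its receptor integrin alpha8 beta1. Asc-1, the transporter after which the class is named, is the product of Slc7a10 and exchanges small neutral amino acids such as serine, glycine and alanine. SNAT2, the product of Slc38a2, takes up neutral amino acids together with sodium and is induced when amino acids are scarce.

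The class held 46.8% (45.5 to 48.0%) of what was kept in HFD and 44.7% (43.6 to 45.8%) in NC. The intervals overlap under this cell filter. Both shares moved with the filter, as given in the last section, so the overlap is stated for this filter only. HFD members were deeper, with medians of 8747 counts and 1299 genes per cell against 6631 counts and 1238 genes in NC, and their median mitochondrial shares were 3.48% and 3.40%. The filter left out 110 HFD cells of the class (3.72%) and 84 NC cells (2.26%). Of the SNAT2 subset it left out 69.8% and 63.7%. The class names were available for both libraries, but several earlier columns of the HFD table, such as its graph-based groups, do not describe the cells in their rows and were not used. Across all deposited cells, 17 barcodes occurred in both libraries.

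The class is described first by its markers. The classes were built from the expression of these same cells, so high marker levels are no independent support for the label. Levels are given as CPM, the counts of a gene summed over the cells of a class and scaled to 1000000 counts in all, for HFD and then NC. Slc7a10 was at 216 and 137 CPM, against 67.8 and 31.9 in Gas6 fibroblasts, 6.03 and 2.43 in Pi16 fibroblasts and 4.50 and 1.19 in myofibroblasts. Npnt, which encodes nephronectin, was at 1794 and 1631 CPM, against 1305 and 984 in Gas6 fibroblasts. Both genes separate the alveolar classes, Asc1, SNAT2 and Gas6, from Pi16 fibroblasts and myofibroblasts. Inmt, an amine methyltransferase, was at 7304 and 5577 CPM, and Tcf21, a transcription factor of lung mesenchyme, at 766 and 659 CPM. For both, every other class was lower in both libraries. Ces1d, a carboxylesterase, was at 471 and 427 CPM, and G0s2, an inhibitor of the triglyceride lipase ATGL, at 3332 and 2619 CPM. Itga8, the integrin alpha8 chain, was at 737 and 714 CPM and did not set the class apart. The SNAT2 subset had 1127 and 913 CPM of it, and the annotated pericytes had 760 and 601 CPM.

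Single cells carried several of these markers at once. After each cell was thinned to 3000 counts, which left 2824 HFD and 3519 NC cells and dropped 23 and 121 shallower ones, Inmt had a count in 99.8% and 99.1% of cells and Npnt in 87.7% and 86.7%. Slc7a10 itself had a count in 26.8% (25.2 to 28.5%) in HFD and 18.2% (16.9 to 19.5%) in NC, or 37.3% and 24.3% before thinning. In thinned myofibroblasts, which should lack the gene, the shares were 0.401% and 0.167%. Median depth there was 6617 and 4816 counts. Of thinned members, 94.4% in HFD and 92.6% in NC had a count for at least 3 of the 7 markers. All 7 had a count in 6.34% and 3.84%. At least 3 were also seen in 88.7% and 80.8% of thinned Gas6 fibroblasts and in 81.0% and 72.6% of the thinned SNAT2 subset.

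**Figure D1:**
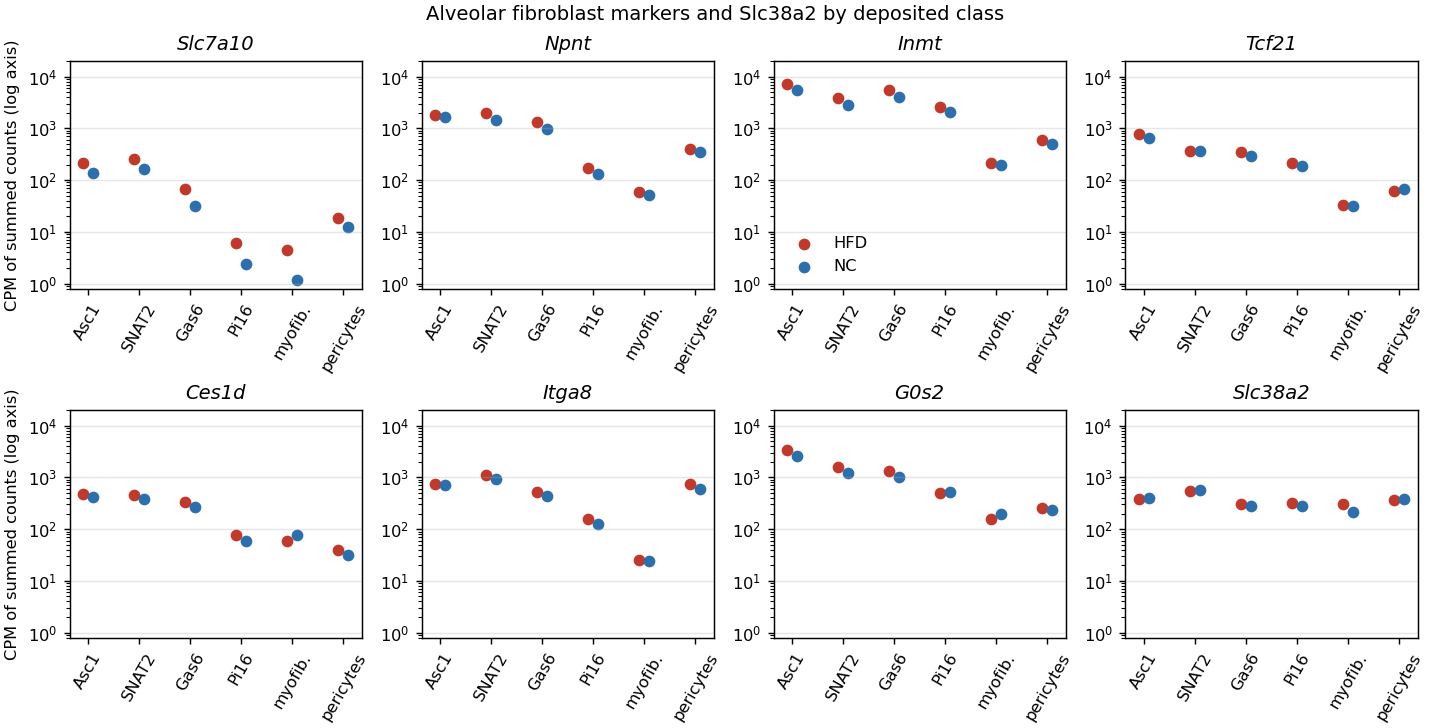
CPM of the 7 class markers and of Slc38a2 (log axis) in the 6 deposited classes, 1 point per library, red for HFD and blue for NC. Slc7a10 goes from 216 and 137 CPM in Asc1 fibroblasts to 4.50 and 1.19 CPM in myofibroblasts, while Itga8 is at 737 and 714 CPM in Asc1 fibroblasts and at 760 and 601 CPM in the annotated pericytes.

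The genes that led the class were headed by Slc7a10, Colq, Fat3 and Bmper. The classes were built from the expression of these same cells, so the lead of a gene is a description with no test. Of 2184 genes with at least 50 CPM in both libraries, 71 were at least 1.5-fold above the next of the Gas6, Pi16, myofibroblast and pericyte classes in both, and 12 were at least 2-fold above. Slc7a10 had the widest smaller lead, 3.19-fold in HFD and 4.30-fold in NC. Colq, the collagen-like tail that anchors acetylcholinesterase, led 3.11-fold and 3.67-fold at 162 and 118 CPM. Among signalling genes, Bmper, a secreted binder of bone morphogenetic proteins, was at 75.3 and 79.9 CPM against 27.9 and 22.7 CPM in Gas6 fibroblasts. Wnt2, a WNT ligand, was at 154 and 119 CPM against 65.9 and 51.2 CPM. Fgfr4, a fibroblast growth factor receptor, was at 76.8 and 66.3 CPM and Dusp6, a phosphatase of ERK kinases, at 99.8 and 109 CPM. In each case Gas6 fibroblasts came next. The remaining leaders were Fat3, an atypical cadherin, at 60.7 and 64.4 CPM, Chst3, a chondroitin sulfotransferase, at 95.4 and 69.6 CPM, Cdkn2c, an inhibitor of cell cycle kinases, at 239 and 154 CPM, and Mapt, the microtubule protein tau, at 149 and 120 CPM. G0s2 and Tcf21 complete the list. The SNAT2 subset was not part of this ranking, and Slc7a10, Fat3, Bmper and Mapt were higher there than in the Asc1 class in both libraries.

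Against the SNAT2 subset, the class was lower in Slc38a2, Neat1, Malat1 and Dcn. Slc38a2 was at 389 and 397 CPM against 559 and 581 CPM in the subset. Neat1, a noncoding RNA of nuclear paraspeckles, was at 635 and 747 CPM against 1951 and 2117 CPM. Malat1, another nuclear noncoding RNA, was at 50232 and 45502 CPM against 85038 and 79025 CPM. The subset also had shallower cells (medians of 4009 and 3037 counts) with larger mitochondrial shares (6.27% and 6.44%). The part of depth and RNA quality in these differences was not tested. Inmt, Tcf21 and G0s2 were higher in the class, whereas Slc7a10 was at 257 and 160 CPM in the subset and so no lower there. Dcn, the proteoglycan decorin, was at 139 and 177 CPM in the class and at 495 and 774 CPM in the subset.

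Transcripts of other cell types were scarce among the members. The 7 markers of adventitial fibroblasts summed to 166 and 211 CPM, most of it Dcn, against 7902 and 8180 CPM in Pi16 fibroblasts. Pi16, the marker that names that class, was at 4.74 and 5.51 CPM. Smooth muscle markers summed to 141 and 130 CPM against 18281 and 17774 CPM in the class labelled pericytes, and myofibroblast markers to 115 and 119 CPM. Pecam1 and Cdh5 of endothelium, Epcam and Sftpc of epithelium, Ptprc of immune cells and Msln of mesothelium had no count in any member, which at 3 effective counts allows up to 0.575 CPM in HFD and 0.491 CPM in NC. The 5 immune markers together came to 9.76 and 9.74 CPM. Pericyte markers were at 19.3 and 35.3 CPM, lower in HFD, most of it the growth factor receptor gene Pdgfrb.

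Within the class, the 10 genes that varied most from cell to cell were Malat1, Mt1, Ccl2, Cxcl10, Mgp, Hspb1, G0s2, Fos, Cxcl1 and Mt2. Variability was measured as variance over mean of the thinned counts and had a median of 2.76 in HFD and 2.73 in NC over 3160 genes. Ranked by the smaller of their 2 values, Malat1 came first at 44.1 and 38.9, with a count in nearly every cell. Mt1, a metallothionein that binds zinc, came next at 50.2 and 35.1, and had a count in 48.3% and 74.3% of thinned cells. Mt2, the other main metallothionein, was at 11.05 and 11.2, with a count in 20.2% and 41.9% of thinned cells. The chemokines Ccl2 (20.7 and 24.4), Cxcl10 (17.1 and 18.1) and Cxcl1 (11.5 and 11.1) came from fewer cells. Ccl2, which attracts monocytes, had a count in 6.41% and 9.55% of thinned cells, Cxcl10, an interferon-induced chemokine, in 7.05% and 10.5%, and Cxcl1 in 10.6% and 16.3%. Mgp, which encodes matrix Gla protein, had 18.01 and 16.4, and G0s2 had 13.5 and 12.1. The heat shock gene Hspb1, which has a near-identical pseudogene and so an uncertain level, had 16.5 and 14.2, and the immediate early gene Fos 12.6 and 11.4. The marker Slc7a10 had 3.02 and 2.92, rank 637 of the 3160 genes.

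In the NC table, a column of graph-based groups divided most of the class into a deeper and a shallower group. Group 1 held 1945 members (53.4%, median of 7741 counts) and group 3 held 1421 (39.0%, median of 4820 counts). The groups were formed on these transcripts, so their differences are given with no test. Genes higher in group 3 are given first. Ptgs2, the inducible prostaglandin synthase, was at 10.2 CPM in group 1 and 96.7 in group 3. Has1, a hyaluronan synthase, was at 27.8 and 126 CPM, and Il6, a cytokine, at 146 and 283 CPM. The complement genes C4b (127 and 408 CPM) and C3 (340 and 588 CPM) went the same way, as did Mt1 (4555 and 7331 CPM). Dcn, the adventitial marker most abundant in the class, was at 84.9 and 272 CPM, and its part in these differences was not tested. Of genes higher in group 1, Cdkn2c was at 182 and 113 CPM and Gyg at 513 and 363 CPM. Most class markers were lower in group 3. Slc7a10 was at 156 and 121 CPM, Npnt at 1741 and 1395, and Tcf21 at 727 and 589. Ces1d was at 462 and 375 CPM and Itga8 at 743 and 663. Inmt (5717 and 5518 CPM) and G0s2 (2702 and 2722 CPM) differed little. Depth moves with these groups, and its part in the differences was not tested.

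Between the diets, most transcripts of the class were at like levels. Of 10899 genes with at least 50 effective counts (counts corrected for their excess variance) over both libraries, 89.4% lay within 1.5-fold, and the median absolute log2 ratio of HFD over NC was 0.21. By size alone, 538 genes (4.94%) were at least 1.5-fold higher in HFD and 613 (5.62%) at least 1.5-fold lower. Among 3016 genes with at least 50 CPM, 116 were higher and 116 lower, 3.85% each way. The genes at the high end included Mfap4, Hes1 and Lrat. Those at the low end included glucocorticoid-induced genes, an endoplasmic reticulum chaperone and Igf1. Depth differed between the libraries. The 24 genes named at both ends, chosen for their extreme ratios, all stayed past 1.5-fold in the same direction under each alternative. One alternative kept only cells of 5000 to 10000 counts. There, 39 of 131 named genes moved outside their counting interval, and 8 of 33 list medians moved. The part of depth was not tested.

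**Figure D2:**
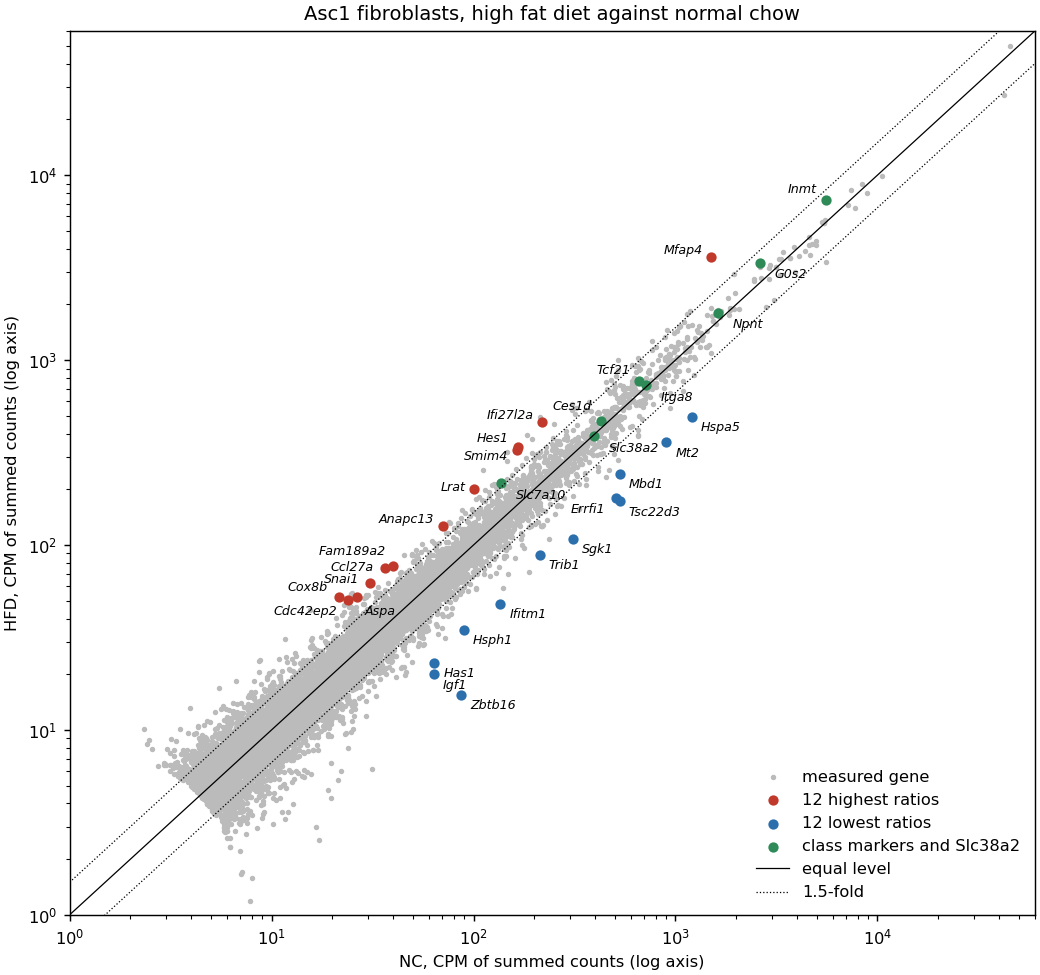
CPM of each measured gene in Asc1 fibroblasts of NC (x) and HFD (y), both on log axes, with the 12 highest ratios in red, the 12 lowest in blue and the class markers with Slc38a2 in green. Mfap4 stands above the 1.5-fold line at 3593 against 1507 CPM, Zbtb16 far below it at 15.5 against 87.1 CPM, and Npnt and Itga8 sit near the line of equal level.

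At the high end, Mfap4 stood out by its level. Mfap4, a glycoprotein of elastic microfibrils, was at 3593 CPM in HFD and 1507 in NC, a ratio of 2.38 (2.33 to 2.44). Thinned cells had a median of 9 counts in HFD and 3 in NC, and the lower quartiles were 4 and 0 counts. Hes1, a transcriptional repressor induced by Notch signalling, was at 338 and 166 CPM (2.04, 1.89 to 2.21), with a count in 38.3% and 24.1% of thinned cells. Lrat, the enzyme that esterifies retinol for storage, was at 199.7 and 101 CPM (1.98, 1.79 to 2.19). Ifi27l2a, an interferon-induced gene, was at 461 and 219 CPM (2.11, 1.97 to 2.25). Of the mitochondrial genes, Cox8b, a subunit of cytochrome oxidase, was at 52.5 and 21.5 CPM (2.44, 1.97 to 3.03). Smim4, a small membrane protein, was at 328 and 164 CPM (1.99, 1.84 to 2.16). Snai1, a transcription factor of mesenchymal cells, was at 62.4 and 30.6 CPM (2.04, 1.699 to 2.46). The ratios of Ccl27a, a chemokine with near-identical gene copies whose level is uncertain, Cdc42ep2, an effector of the GTPase CDC42, Fam189a2, Aspa, which splits N-acetylaspartate, and Anapc13, a subunit of the anaphase-promoting complex, lay between 1.79 and 2.11.

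At the low end, Zbtb16, a zinc finger transcription factor and glucocorticoid target, was at 15.5 CPM in HFD and 87.1 in NC, a ratio of 0.178 (0.139 to 0.225). It had a count in 2.62% and 11.9% of thinned cells. Igf1, the insulin-like growth factor, was at 19.99 and 63.7 CPM (0.314, 0.2502 to 0.390). Ifitm1, an interferon-induced membrane protein, was at 48.2 and 136 CPM (0.355, 0.307 to 0.410), the opposite direction to Ifi27l2a. Mt2 was at 359.7 and 899.7 CPM (0.400, 0.379 to 0.421). Has1, whose counts came from 1.98% and 4.49% of thinned cells, was at 23.0 and 63.9 CPM (0.361, 0.291 to 0.444). With the top 1% of cells left out for each gene, the log2 ratio was −2.56 for Has1 and −3.29 for Zbtb16, against −1.47 and −2.49. Trib1, a pseudokinase that promotes protein degradation, had a ratio of 0.415 (0.372 to 0.462), and Mbd1, a methylated DNA binding protein, 0.459 (0.429 to 0.489). Tsc22d3, Errfi1, Sgk1, Hspa5 and Hsph1 belong to the groups described next.

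**Figure D3:**
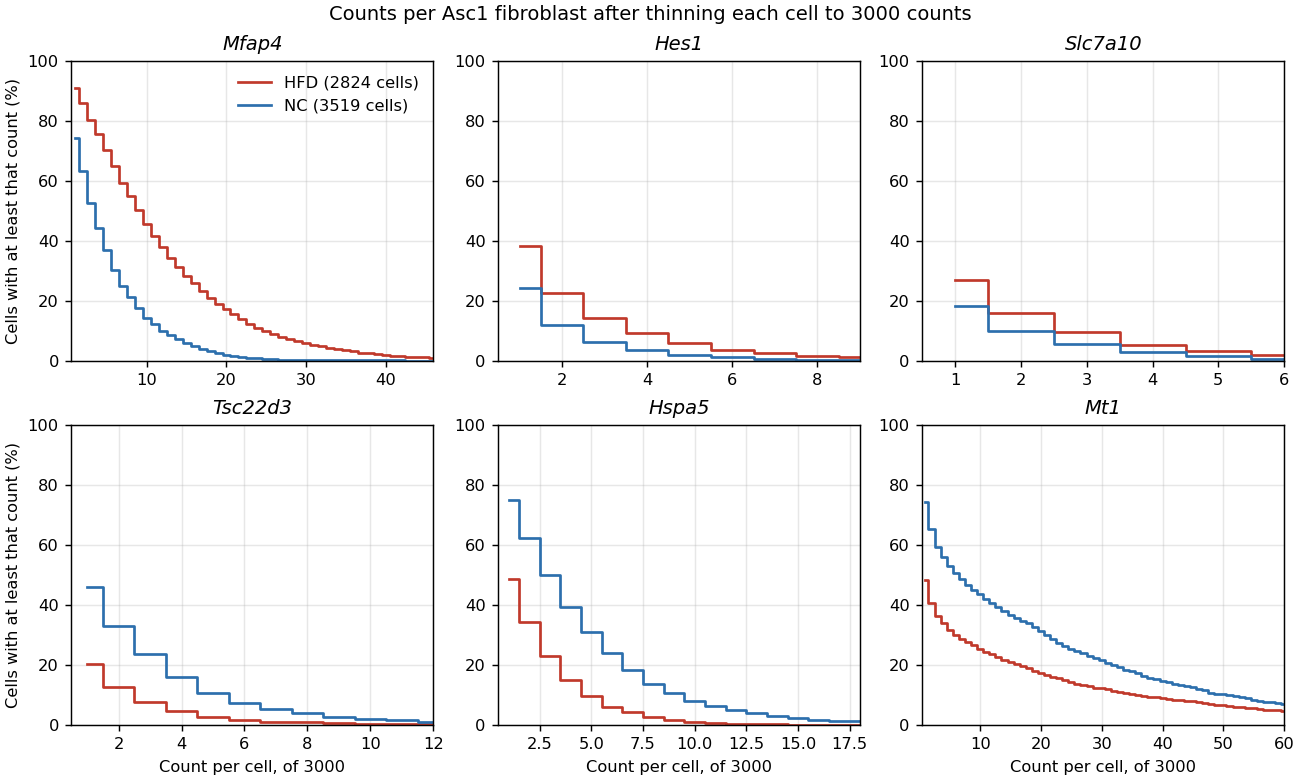
Share of thinned Asc1 fibroblasts (y, percent) with at least the count on the x axis, out of 3000 counts per cell, in 2824 HFD cells (red) and 3519 NC cells (blue). At 1 count the HFD curve of Mfap4, Hes1 and Slc7a10 starts above the NC curve and that of Tsc22d3, Hspa5 and Mt1 below it, at 91.2% and 74.5% of cells for Mfap4 and at 48.8% and 75.02% for Hspa5.

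Transcripts of the unfolded protein response were lower in HFD. This response is the program by which cells make more chaperones and folding enzymes when proteins accumulate unfolded in the endoplasmic reticulum. Of 23 measured members of its list, 10 were lower by 1.5-fold and 0 higher, with a median log2 ratio of −0.50 against −0.0062 over all measured genes. Over all measured genes, 5.62% were lower and 4.94% higher by 1.5-fold, the shares to set beside the counts of every list below. Hspa5, the main chaperone of that compartment, was at 494 CPM in HFD and 1207 in NC (0.409, 0.391 to 0.428), with a count in 48.8% and 75.02% of thinned cells. Manf, a secreted factor induced by this stress, was at 107 and 237 CPM (0.453, 0.411 to 0.500), and Dnajb9, a cochaperone of Hspa5, at 84.8 and 161 CPM (0.528, 0.470 to 0.591). Sdf2l1, a partner of these chaperones, was at 11.2 and 24.98 CPM (0.449, 0.326 to 0.611). Atf3, a transcription factor that many stresses induce, went the other way at 3186 and 2613 CPM. It was picked out after its value was seen.

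Because many of these genes share a promoter element, the 250 bases before their start sites were searched on both strands for the endoplasmic reticulum stress response element, CCAAT and CCACG with any 9 bases between them. Promoters were those of RefSeq, build GRCm38.p6, in which 24 of the 27 list members were found. Of these 24 genes, 8 held an exact match, while 0.113% of all 32851 windows, counted by window and not by gene, held one. The element was chosen because many of these genes share it, so its frequency among them is no finding. Copies with a changed base were not counted. A match describes letters only and is not evidence of binding. Capitals mark the element, read directly or as its reverse complement, and each sequence runs 5′ to 3′ on the strand of its gene. For Hspa5 the whole window is shown (chr2:34771840-34772089, plus strand), and for the others the element with 15 bases on each side.
Hspa5: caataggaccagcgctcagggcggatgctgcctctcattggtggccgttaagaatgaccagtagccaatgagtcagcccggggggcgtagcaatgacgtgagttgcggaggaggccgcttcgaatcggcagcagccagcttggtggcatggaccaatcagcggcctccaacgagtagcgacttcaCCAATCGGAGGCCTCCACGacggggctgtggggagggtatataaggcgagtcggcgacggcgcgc
Calr: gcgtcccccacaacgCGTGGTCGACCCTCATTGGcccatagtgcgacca
Hsp90b1: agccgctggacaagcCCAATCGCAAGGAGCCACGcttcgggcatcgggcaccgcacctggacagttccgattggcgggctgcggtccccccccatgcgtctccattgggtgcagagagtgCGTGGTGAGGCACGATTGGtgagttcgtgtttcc
Canx: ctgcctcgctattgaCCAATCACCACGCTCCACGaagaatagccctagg
Pdia6: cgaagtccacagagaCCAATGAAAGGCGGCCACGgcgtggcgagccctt
Dnajc3: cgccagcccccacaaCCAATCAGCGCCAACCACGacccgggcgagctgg
Creld2: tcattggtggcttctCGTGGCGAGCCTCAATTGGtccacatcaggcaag
Syvn1: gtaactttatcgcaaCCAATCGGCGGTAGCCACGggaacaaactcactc

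The Calr stretch is chr8:84847060-84847108 on the minus strand. The Hsp90b1 stretch is chr10:86705518-86705671 on the minus strand. The Canx stretch is chr11:50325785-50325833 on the minus strand. The Pdia6 stretch is chr12:17266476-17266524 on the plus strand. The Dnajc3 stretch is chr14:118937812-118937860 on the plus strand. The Creld2 stretch is chr15:88819505-88819553 on the plus strand. The Syvn1 stretch is chr19:6046517-6046565 on the plus strand. In Calr and Creld2 the element is on the opposite strand to the gene, and Hsp90b1 holds 1 copy on each strand.

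The 8 genes with the element were all at a ratio below 1, from Hspa5 at 0.409 to Canx, a chaperone of glycoproteins, at 0.897 (0.801 to 1.005). Creld2, a secreted stress protein, was at 11.9 and 25.6 CPM (0.465, 0.341 to 0.628). Calr, which encodes the calcium-binding chaperone calreticulin, was at 165 and 261 CPM (0.633, 0.582 to 0.688), and Pdia6, a disulfide isomerase, at 133 and 209 CPM (0.638, 0.581 to 0.701). Syvn1, a ubiquitin ligase that clears misfolded proteins, had a ratio of 0.675 (0.522 to 0.870) and Dnajc3, a cochaperone, 0.716 (0.645 to 0.795). Hsp90b1, with an exact match on each strand, was at 388 and 491 CPM (0.790, 0.746 to 0.836). The median log2 ratio was −0.61 over these 8 genes and −0.38 over the 12 measured list members whose window lacked an exact match. Not all measured members had a window. Manf, with a ratio of 0.453, had none and is in neither median. Whether the element has a part in the difference was not tested.

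Glucocorticoid-induced genes had the lowest median of the 33 lists. Glucocorticoids act through a nuclear receptor that switches on such genes in most cells. Of 21 measured members, 13 were lower by 1.5-fold and 0 higher, and the median log2 ratio was −0.73. Tsc22d3, which encodes the anti-inflammatory leucine zipper GILZ, was at 173 CPM in HFD and 529 in NC (0.326, 0.302 to 0.351). Errfi1, an inhibitor of the epidermal growth factor receptor, was at 178 and 506 CPM (0.353, 0.327 to 0.380), and Sgk1, a kinase that regulates ion transport, at 108 and 311 CPM (0.347, 0.315 to 0.381). Thinned cells with a count were fewer in HFD for each, 20.3% against 45.8% for Tsc22d3. Not every gene of the list was low. Dusp1, a phosphatase of stress kinases, was at 3269.7 and 2927 CPM, and Nr3c1, the glucocorticoid receptor itself, at 185 and 147 CPM (1.26, 1.15 to 1.38). Hsd11b1, the enzyme that regenerates active glucocorticoid, was at 1130 and 1143 CPM. These 3 were picked out after their values were seen.

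Genes of sterol and fatty acid synthesis were lower in HFD as well. Both sets are controlled by SREBP transcription factors, which are released when sterols are scarce. Of 22 measured genes of cholesterol synthesis and SREBP2, 12 were lower by 1.5-fold, 0 higher, and all 22 were below a ratio of 1 (median log2 ratio −0.64). Their levels were modest. Idi1, an isomerase of the isoprenoid pathway, was at 23.4 and 49.3 CPM (0.475, 0.382 to 0.588) and Cyp51, a sterol demethylase, at 15.3 and 32.8 CPM (0.466, 0.355 to 0.607). Hsd17b7, which reduces a sterol intermediate, had a ratio of 0.481 (0.346 to 0.659) and Msmo1, a methylsterol oxidase, 0.547 (0.449 to 0.665). The list of fatty acid synthesis and SREBP1 had a median of −0.53, with 5 of 12 measured members lower. The desaturases Fads2 and Fads1 were at 35.1 and 56.7 CPM and at 34.2 and 55.1 CPM, with ratios of 0.619 and 0.620. Elovl6, a fatty acid elongase, had a ratio of 0.443 (0.270 to 0.708). Fasn, the fatty acid synthase, was at 16.7 and 25.5 CPM (0.656, 0.499 to 0.858), and Fads2, Fads1 and Fasn each came inside 1.5-fold under at least 1 alternative. After thinning, the median of that list was −0.20.

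Lipid storage and uptake genes had no common direction. The shares over all measured genes were 4.94% higher and 5.62% lower by 1.5-fold. For lipid droplets and triglyceride turnover the median log2 ratio was 0.0038, with 0 of 15 measured members higher and 2 lower. These were Lpin1, a phosphatidate phosphatase, at 45.6 and 78.6 CPM (0.581, 0.495 to 0.680), and Abhd5, the activator of ATGL, at 20.7 and 33.7 CPM (0.614, 0.482 to 0.778). G0s2, which inhibits the same lipase, was at 3332 and 2619 CPM (1.27, 1.25 to 1.30), and the droplet coat protein Plin2 at 212 and 179 CPM (1.18, 1.09 to 1.29). Of 14 measured genes of fatty acid uptake and binding, 3 were higher and 2 lower. Fabp3, a fatty acid-binding protein, was at 155 and 87.5 CPM (1.77, 1.58 to 1.98) and Slc27a3, an acyl-CoA synthetase of the transporter family, at 63.8 and 41.8 CPM (1.53, 1.29 to 1.80). The lower ones were Angptl4, an inhibitor of lipoprotein lipase, at 108 and 172 CPM (0.628, 0.566 to 0.696), and Lpl, that lipase, at 11.4 and 21.9 CPM (0.519, 0.375 to 0.709). Of these, Slc27a3 (log2 ratio 0.39) and Angptl4 (−0.50) came inside 1.5-fold in cells of 5000 to 10000 counts, and Abhd5 (−0.57) did so after thinning. Apoe, a lipoprotein of cholesterol efflux, was at 4213 and 4557 CPM (0.924, 0.908 to 0.941). Its log2 ratio was 0.029 in cells of 5000 to 10000 counts.

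Genes of mitochondrial energy metabolism were slightly higher in HFD. Among all measured genes, 4.94% were higher and 5.62% lower by 1.5-fold. All 44 nuclear-encoded subunits of the respiratory chain were measured, of which 39 were above a ratio of 1, 5 were higher by 1.5-fold and 0 lower, with a median log2 ratio of 0.27. Cox6c, a cytochrome oxidase subunit, was at 824 and 505 CPM (1.63, 1.56 to 1.71). Of complex I, Ndufc1 was at 194 and 119 CPM (1.63, 1.48 to 1.79) and Ndufa5 at 259 and 162 CPM (1.60, 1.48 to 1.74). Short transcripts as a whole were higher in HFD. Of genes with at least 50 CPM and a longest transcript of up to 800 nt, 44 of 407 were higher and 12 lower (median 0.16), against 6 and 30 of 953 with over 4000 nt (median −0.07). Of the respiratory chain list, 14 genes are that short. Over the alternatives, one of which left out transcripts of up to 800 nt, the median of this list ran from 0.20 to 0.31. The part of length in its difference was not tested. Fatty acid oxidation and PPAR targets had a median of 0.25, with 3 of 26 measured members higher and 1 lower. Acot2, a mitochondrial thioesterase, was at 30.5 and 15.7 CPM (1.94, 1.495 to 2.52), and Ech1, an isomerase of fatty acid oxidation, at 217 and 160 CPM (1.36, 1.24 to 1.48). Pdk4, a kinase that restrains pyruvate oxidation and also a glucocorticoid target, was at 4.74 and 18.98 CPM (0.2497, 0.155 to 0.388).

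The genes that mark alveolar fibroblasts were level or higher in HFD. Of 27 measured identity genes, 23 were above a ratio of 1, 3 were higher by 1.5-fold and 0 lower (median log2 ratio 0.17). Besides Mfap4, these were Slc7a10, with a ratio of 1.57 (1.44 to 1.72), and Gyg. Gyg, the glycogen primer glycogenin, was at 696 and 456 CPM (1.53, 1.45 to 1.60), though inside 1.5-fold after thinning (log2 ratio 0.56) and in cells of 5000 to 10000 counts (0.48). Lbh, a transcriptional cofactor of mesoderm, was at 739 and 496 CPM (1.49, 1.42 to 1.56). Ratios were 1.31 (1.29 to 1.33) for Inmt, 1.16 (1.11 to 1.21) for Tcf21, 1.10 (1.04 to 1.16) for Ces1d, 1.10 (1.07 to 1.13) for Npnt and 1.03 (0.989 to 1.08) for Itga8. In cells of 5000 to 10000 counts, Npnt and Itga8 lay on the other side, with log2 ratios of −0.039 and −0.016. Slc38a2 had a ratio of 0.981 (0.924 to 1.04). Of the other amino acid carriers, 14 of the list being measured, Slc6a6, a taurine transporter, was at 325 and 246 CPM (1.32, 1.23 to 1.42), and Slc1a3, a glutamate transporter, at 168 and 127 CPM (1.32, 1.20 to 1.45). Slc7a1, a carrier of cationic amino acids, was at 5.97 and 11.01 CPM (0.542, 0.342 to 0.840). The retinoid list held 1 higher gene, Lrat, and 1 lower, Rbp4, the retinol-binding protein, at 20.6 and 36.2 CPM (0.569, 0.447 to 0.719). The log2 ratio of Rbp4 was −0.19 in cells of 5000 to 10000 counts, against −0.81. Aldh1a1, which makes retinoic acid, was at 614 and 710 CPM (0.865, 0.827 to 0.906).

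Cytosolic heat shock genes were lower in HFD, and immediate early genes, which respond to tissue handling, were at like levels. The part of handling in either result was not tested. All 16 heat shock genes were below a ratio of 1, 5 of them by 1.5-fold, with a median log2 ratio of −0.50. Hsph1, a large cochaperone of the HSP70 family, was at 34.8 and 89.2 CPM (0.391, 0.328 to 0.463), and Dnaja1, another cochaperone, at 393 and 655 CPM (0.599, 0.568 to 0.632). Hsp90ab1, a constitutive HSP90, was at 767 and 1089 CPM (0.704, 0.677 to 0.733). Bag3, a cochaperone of selective autophagy, was at 126 and 189 CPM (0.666, 0.604 to 0.734), at the edge of 1.5-fold and inside it with other scalings. The 27 measured immediate early genes had a median of 0.043, 0 higher and 3 lower. The lower ones were Fosl1 at 3.32 and 8.92 CPM, Myc at 3.59 and 9.12 CPM, both near the limit of measurement, and Ier5 at 180 and 281 CPM (0.641, 0.591 to 0.694). Fos was at 8333 and 7439 CPM.

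Inflammatory transcripts were lower in part. Of 18 measured stromal chemokines and cytokines, 5 were lower and 2 higher (median log2 ratio −0.25). Cxcl1, which attracts neutrophils, was at 184 and 312 CPM (0.588, 0.543 to 0.636), Cxcl10 at 163 and 272 CPM (0.599, 0.551 to 0.651) and Ccl7 at 28.6 and 53.3 CPM (0.537, 0.439 to 0.654). Il11, a profibrotic cytokine, was at 2.61 and 6.25 CPM (0.417, 0.207 to 0.793). These genes come from few cells, and the log2 ratio of Cxcl10 was −0.53 in cells of 5000 to 10000 counts, inside 1.5-fold. NF-kB feedback genes had a median of −0.34, with 4 of 19 lower and 0 higher. Nfkb1, a subunit of NF-kB, was at 75.9 and 133 CPM (0.570, 0.504 to 0.644), and Birc3, an inhibitor of apoptosis, at 94.5 and 145 CPM (0.652, 0.583 to 0.729). Nfkbia, the inhibitor of NF-kB, had a ratio of 0.695 (0.661 to 0.731) and Sod2, a mitochondrial superoxide dismutase, 0.692 (0.636 to 0.753). Complement genes had a median of −0.020. C3 was at 314 and 438 CPM (0.716, 0.673 to 0.762) and C1qtnf2, a secreted relative of C1q, at 144 and 95.9 CPM (1.502, 1.35 to 1.68), at the edge of 1.5-fold and inside it under 3 alternatives. Saa3, an acute phase gene, was at 2.53 and 17.2 CPM, in 0.212% and 0.597% of thinned cells. Interferon and MHC class I genes had a median of 0.0045, with Ifi27l2a and Ifit3 (24.1 and 10.9 CPM, 2.21, 1.63 to 3.02) higher and Ifitm1 lower.

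Genes of fibrillar and basement membrane matrix were lower in HFD by small amounts. Of 16 measured collagens, 15 were below a ratio of 1 but only 2 were lower by 1.5-fold and 0 higher (median log2 ratio −0.35). All measured genes were lower by 1.5-fold in 5.62% and higher in 4.94%. Over the alternatives, the collagen median ran from −0.42 to −0.15. Collagen transcripts are long, with a median longest transcript of 6024.5 nt. The TGF-beta (5090 nt) and basement membrane (6161 nt) lists below are long as well. Of 953 genes with at least 50 CPM and over 4000 nt, 30 were lower and 6 higher. The part of length in these differences was not tested. Col3a1, a fibrillar collagen, was at 433 and 592 CPM (0.732, 0.694 to 0.771), Col4a1, a basement membrane collagen, at 129 and 192 CPM (0.670, 0.608 to 0.737), and Col12a1, a fibril-associated collagen, at 9.32 and 18.98 CPM (0.491, 0.344 to 0.692). The elastic fibre list contained Mfap4, the one member higher, and 4 lower of 18 (median −0.24). Lox, which crosslinks elastin and collagen, was at 113 and 174 CPM (0.651, 0.588 to 0.720), and came inside 1.5-fold (log2 ratio −0.51) with at least 1000 genes and 5% or less of mitochondrial counts. Ltbp2, a microfibril protein, was at 3.59 and 12.04 CPM (0.299, 0.170 to 0.501). Of the TGF-beta and profibrotic list, 6 of 19 were lower and 0 higher (median −0.28). Tagln, a contractile protein, was at 312 and 496 CPM (0.628, 0.591 to 0.667) and Timp1, an inhibitor of metalloproteinases, at 21.8 and 44.2 CPM (0.494, 0.393 to 0.617). Runx1, a transcription factor, had a ratio of 0.606 (0.504 to 0.727), and a log2 ratio of −0.52 in cells of 5000 to 10000 counts, inside 1.5-fold. Among proteoglycans and hyaluronan genes, with 2 of 16 higher and 3 lower, Sdc4, a cell surface heparan sulfate carrier, was at 253 and 467 CPM (0.542, 0.507 to 0.578) and Tnfaip6, which modifies hyaluronan, at 127 and 216 CPM (0.588, 0.535 to 0.646). Ogn, a small leucine-rich proteoglycan, was at 1920 and 1505 CPM (1.28, 1.24 to 1.31). Basement membrane genes and integrins had a median of −0.18, with 2 of 19 lower, among them Itga1, a collagen receptor, at 6.04 and 14.4 CPM.

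Signals from fibroblasts to epithelium were past 1.5-fold no more often than all genes (4.94% higher, 5.62% lower). Of 23 measured niche signals, 1 was higher and 1 lower, with a median log2 ratio of −0.015. The higher gene was Hgf, the hepatocyte growth factor, at 94.97 and 57.8 CPM (1.64, 1.43 to 1.89), and the lower was Igf1. Axin2, a target of WNT signalling, was at 37.0 and 24.7 CPM (1.49, 1.20 to 1.86), and Dkk3, a secreted protein of the Dickkopf family, at 66.9 and 98.1 CPM (0.682, 0.596 to 0.779). In the insulin and IGF list 4 of 17 were lower and 0 higher (median −0.26). Its transcripts are also long (median 6323 nt), and the part of length was not tested. Irs2, an adaptor of the insulin receptor, was at 96.8 and 179 CPM (0.542, 0.487 to 0.603), Igfbp4, a binding protein of IGF, at 29.3 and 56.6 CPM (0.517, 0.425 to 0.628) and Foxo3, a transcription factor that insulin restrains, at 34.9 and 56.1 CPM (0.623, 0.517 to 0.747). Vascular signals had a median of 0.19. Vegfd, a lymphatic growth factor, was at 303 and 223 CPM (1.36, 1.26 to 1.46) and Vegfa, the main endothelial growth factor, at 245 and 195 CPM (1.26, 1.16 to 1.36). Of the Notch genes, Hes1 was the 1 of 7 measured that was past 1.5-fold. In cGMP signalling, Gucy1a1, a subunit of the nitric oxide receptor, was at 82.0 and 50.6 CPM (1.62, 1.40 to 1.88), with a log2 ratio of 0.485 in cells of 5000 to 10000 counts, inside 1.5-fold. Npr3, a clearance receptor of natriuretic peptides, was at 7.94 and 23.9 CPM (0.333, 0.230 to 0.473).

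The remaining lists had medians between −0.14 and 0.090. Their counts stand beside 4.94% higher and 5.62% lower over all measured genes. The circadian clock list was at 0.039 with 1 of 16 higher and 1 lower. Its member Dbp, a clock output factor, was at 197 and 132 CPM (1.49, 1.36 to 1.64), and Nr1d1, a repressor of the clock, at 206 and 148 CPM (1.39, 1.27 to 1.52). The cell cycle and p53 list was at −0.14 but had 4 of 16 lower and 1 higher, with Cdkn1a, an inhibitor of cell cycle kinases, at 136 and 232 CPM (0.586, 0.535 to 0.642) and Cdkn2c at a ratio of 1.55 (1.42 to 1.69), or a log2 ratio of 0.582 and so inside 1.5-fold under the stricter cell filter. Antioxidant genes were at −0.10 (0 of 21 higher, 2 lower), xenobiotic and alcohol metabolism at 0.090 (0 of 12 in either direction), cholesterol efflux at −0.040 (0 of 10 in either direction) and serine, glycine and one-carbon enzymes, the pathway of the amino acids that Asc-1 carries, at −0.10 (1 of 8 higher, 1 lower). Of the 33 lists, 22 had a median below 0 and 11 above.

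**Figure D4:**
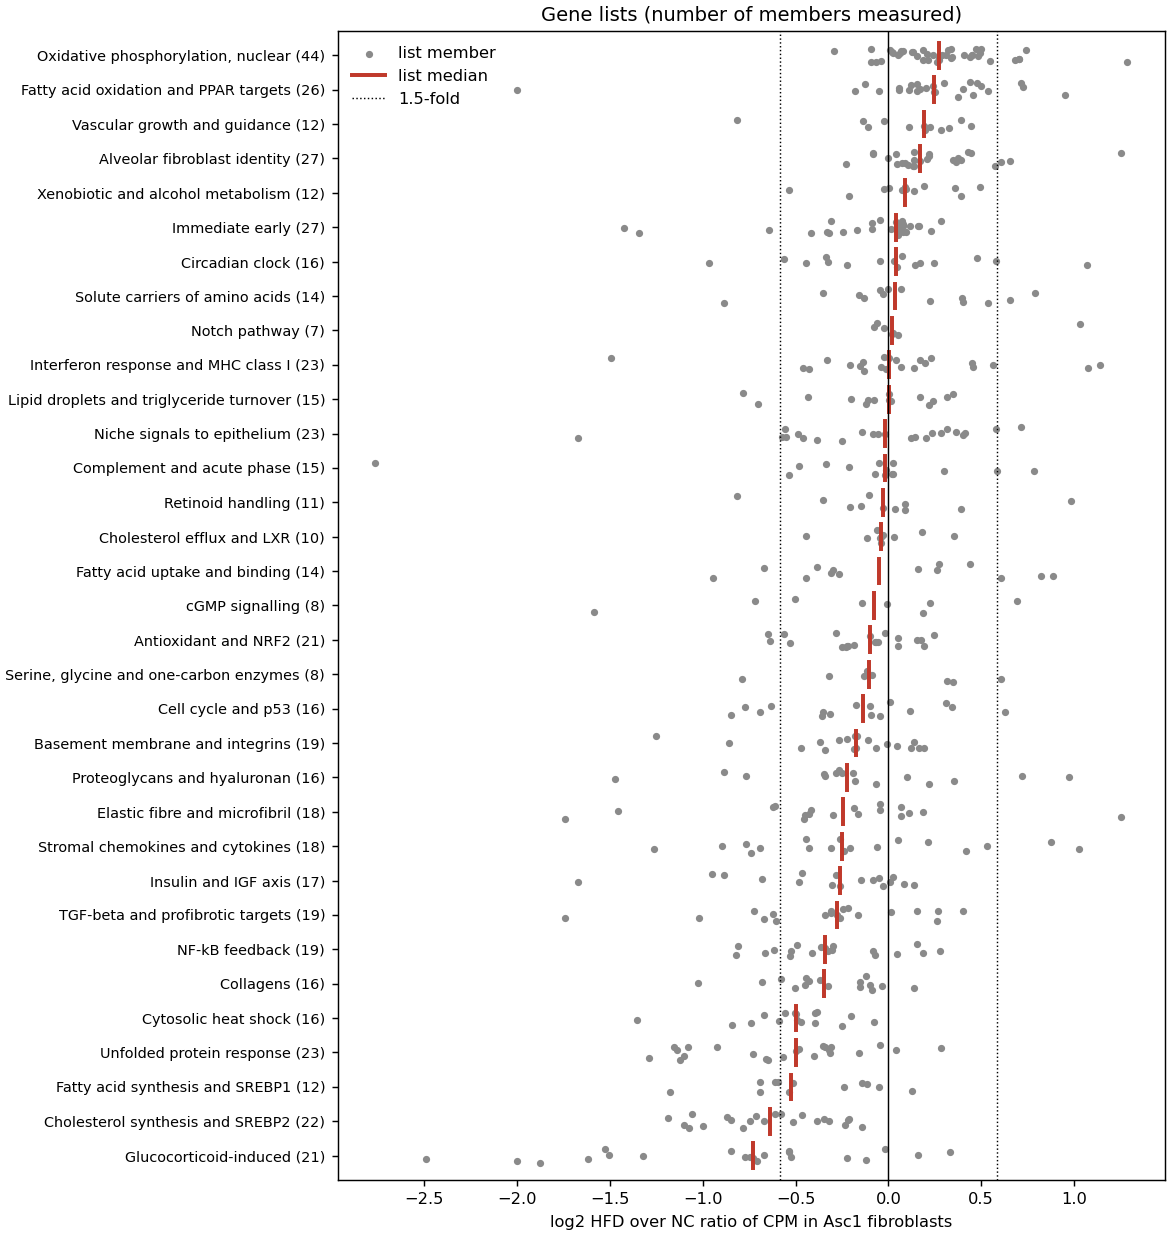
log2 ratio of HFD over NC of each measured member (grey point) of the 33 gene lists in Asc1 fibroblasts, with the list median in red, dotted lines at 1.5-fold and the number of measured members in parentheses. Glucocorticoid-induced genes have the lowest median (−0.73) and nuclear-encoded oxidative phosphorylation the highest (0.27), and single members such as Hes1 in the Notch list lie far from their list.

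The 24 genes at both ends were also looked up in the other fibroblast classes, which come from the same pair of libraries. All 12 highest genes were higher in HFD in Gas6 fibroblasts as well and all 12 lowest were lower. The genes were chosen on the Asc1 class for their extreme ratios, so a less extreme ratio elsewhere is no finding. In 9 of the 12 high genes and 11 of the 12 low ones the Asc1 ratio lay farther from 1. In the SNAT2 subset, 5 of 5 measured high genes and 10 of 10 low genes had the same direction, with the Asc1 ratio farther from 1 in 1 and 5 of them. In Pi16 fibroblasts, 9 of 10 measured high genes and all 12 low genes went the same way. The exceptions among classes with at least 50 effective counts were Ccl27a in Pi16 fibroblasts (0.853) and Ifitm1 in myofibroblasts (1.19). Log2 ratios of Asc1 and Gas6 fibroblasts differed by 1.5-fold or more in 12 of 2244 genes (0.535%). The share was 1.08% of 279 genes against the SNAT2 subset, 3.36% of 1906 against Pi16 fibroblasts and 3.32% of 813 against myofibroblasts. Among the genes so compared, which had at least 50 CPM and 100 effective counts in 1 library in each class, 0 were past 1.5-fold in opposite directions. Below that minimum in the Asc1 class, Itga1 (0.419) and Ltbp2 (0.299) had ratios of 1.54 (1.12 to 2.12) and 1.56 (0.963 to 2.55) in myofibroblasts.

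**Figure D5:**
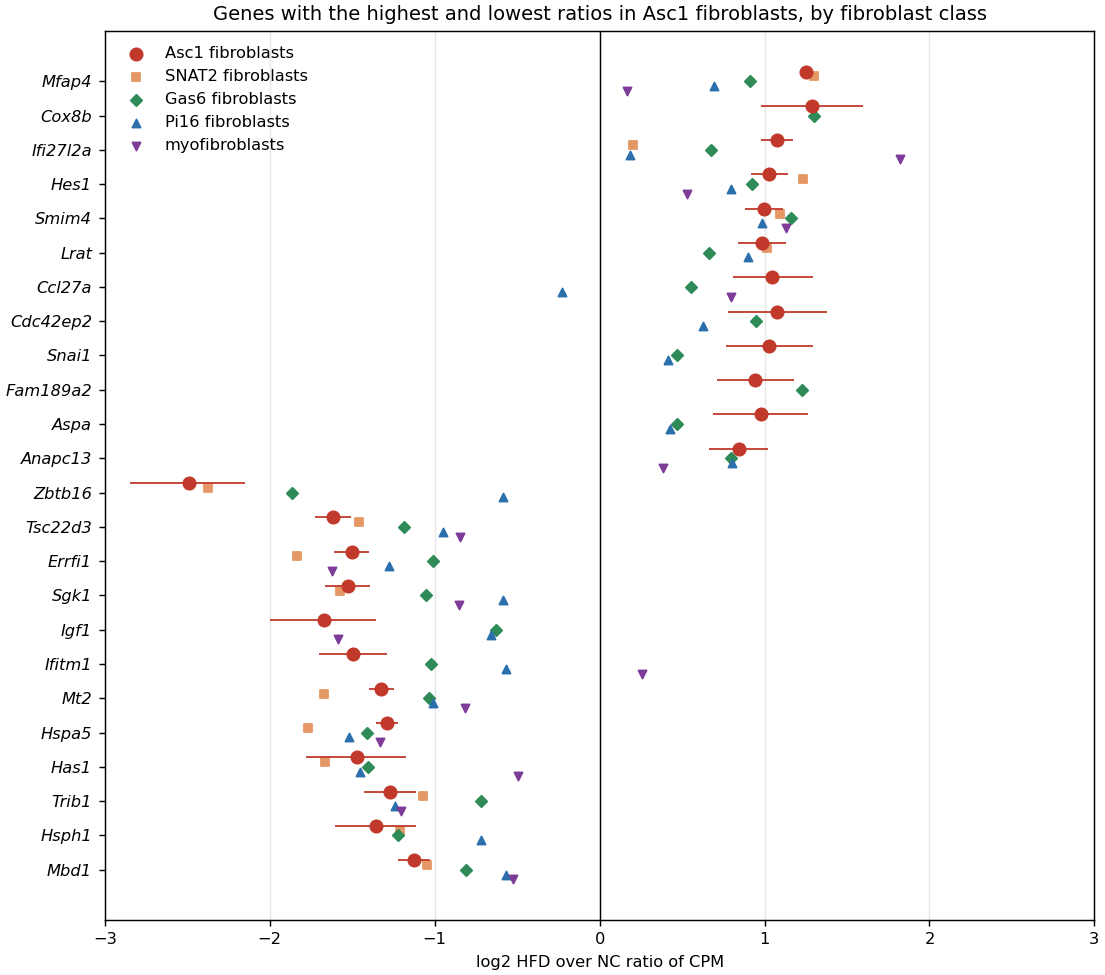
log2 ratio of HFD over NC for the 12 highest and 12 lowest genes of Asc1 fibroblasts (red, with 95% counting intervals) and in 4 other fibroblast classes where a gene had at least 50 effective counts. Zbtb16 is at −2.49 in Asc1 and −0.59 in Pi16 fibroblasts, while Smim4 lies between 0.99 and 1.16 in all 5 classes.

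The 8 genes whose diet ratio lay farthest from that in Gas6 fibroblasts were Acta2, Igf1, Apoc1, Tmem100, Dtna, Gadd45g, Gucy1a1 and Igfbp3. Acta2, smooth muscle actin, was at 84.9 CPM in HFD and 76.2 in NC in the Asc1 class (1.11, 0.976 to 1.27), against 92.1 and 182 CPM in Gas6 fibroblasts (0.507, 0.450 to 0.570). Igf1 was at a ratio of 0.314 against 0.646 (0.561 to 0.743), where it was at 70.0 and 108 CPM. Gadd45g, a stress-induced growth inhibitor, was at 288 and 517 CPM (0.556, 0.522 to 0.591) against 727 and 909 CPM (0.800, 0.765 to 0.836). Its log2 ratio in the class was −0.57 in cells of 5000 to 10000 counts, inside 1.5-fold. Gucy1a1 had a ratio of 1.62 in the class and 2.78 (2.23 to 3.47) in Gas6 fibroblasts. Igfbp3, a binding protein of IGF, was at 474 and 447 CPM (1.06, 1.004 to 1.12) against 319 and 207 CPM (1.54, 1.43 to 1.66). For Apoc1, an apolipoprotein, the ratios were 0.654 and 1.15, for Tmem100, a membrane protein of bone morphogenetic protein signalling, 0.875 and 1.47, and for Dtna, a dystrophin partner, 0.739 and 1.25. With 1 library per diet, no test of these differences between classes was possible.

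Several lists, picked out after their values were seen, differed in median between the classes. Each median was taken over the members measured in that class. Glucocorticoid-induced genes were at −0.73 in the Asc1 class and −0.32 in Gas6 fibroblasts. They were at −0.41 in the SNAT2 subset, −0.47 in Pi16 fibroblasts and −0.50 in myofibroblasts. The insulin and IGF list was at −0.26 and 0.0041. Niche signals were at −0.015 in the class and 0.21 in Gas6 fibroblasts. The cGMP list, with 8 measured members, was at −0.076 and 0.31. The unfolded protein response list was the reverse, at −0.50 and −0.65, and the cholesterol synthesis list was at −0.64 and −0.60.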

How the data were processed

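Lung fibroblastic stroma of 1 HFD and 1 NC library was profiled with a 10x 3′ kit. The authors deposited, per the file headers, log2(CPM + 1) per gene and cell with the cells' annotation, total estimated counts per cell and percent mitochondrial counts. The submitters' processing notes name STAR and mm39, with versions not given in the sources used here. Estimated counts were recovered from the deposited log2 values and cell totals, and 98.8% and 98.96% of nonzero values were whole within 0.01. They are not single molecules: their variance exceeded the Poisson value by factors of 4.85 and 3.98, by which counts were divided to give effective counts for exact conditional Poisson intervals. Shares have exact Clopper-Pearson intervals. Counts were summed over the cells of a class (25313154 in HFD and 24337638 in NC for the Asc1 class) and scaled to CPM. With 1 library per diet no test was run. Doublets were not called. Named genes were the 12 highest and 12 lowest ratios by interval bound among genes with at least 50 CPM and 100 effective counts, the class markers with Slc38a2, the 12 leading genes, the 10 most variable, the 8 farthest from Gas6 fibroblasts in ratio, and up to 4 members of each list with the interval bound farthest from 1. Other genes were chosen after their values were seen. The classes come from the authors' annotation of these cells, and the members and gene lists were chosen with earlier results of these data known. Symbols were found for 96.03% of 21014 genes. Alternatives covered cell filters, scaling, depth, gene minimums and extreme cells. Scripts were tested on simulated data and used Python 3.11.15, numpy 2.4.6, scipy 1.17.1, pandas 2.3.3, matplotlib 3.10.9, R 4.3.3 and edgeR 4.0.16 (TMM factors only).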

Additional observations from a re-analysis of the deposited data

How the results depend on the processing

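No paired analysis was possible because each diet has 1 library. The class share of 46.8% in HFD was 50.4% under a stricter filter (1000 genes, 5% mitochondrial), 42.4% with no cell filter, 50.8% with the SNAT2 subset added and 45.1% for cells with at least 3 markers. The share of 44.7% in NC was 41.3% with no filter, 49.1% with the subset added and 42.2% with at least 3 markers. No NC share is given for the stricter filter, and whether the intervals of the diets overlap there was not tested. The 538 higher and 613 lower genes became 292 and 366 after thinning, 1786 and 1372 with the top 1% of cells left out per gene, 1301 and 1534 at a minimum of 10 effective counts, 116 and 116 at 50 CPM, and 76 and 120 at 2-fold. These changes follow from which cells, genes or folds are counted, and for thinning and the top cells the cause was not tested. The share of calls that were higher was 46.7%, and 56.6% with the top cells left out. The 1 list with a median of at least 0.25 became 2 under TMM, median of ratios, totals without mitochondrial and ribosomal genes, and without the top cells, 3 at 50 CPM and 0 without transcripts of up to 800 nt. Of 461 list medians under alternatives, 428 moved little, 33 moved and 0 turned a called direction. For named genes the numbers were 1352, 83 and 0 of 1435. A turn was counted only for list medians at least 0.25 from 0 and for genes past 1.5-fold. Some lists nearer 0 crossed it. Fatty acid uptake and binding ran from −0.33 to 0.44, and the Notch list from −0.15 to 0.52. The 50 CPM minimum, the cells of 5000 to 10000 counts and the length limit were chosen after seeing the data. Depth limits genes under 50 effective counts, which were not measured.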
